A study of Mus musculus with 12 samples.

Results

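All 12 arrays of the study were compared by genotype label, 6 arrays labelled KO against 6 labelled WT, with the time of stimulation (0, 2 and 4 h) taken into account. The KO label stands for a p38a knockout and the WT label for wild type. Both came from C57BL/6 mice, and each array held RNA of primary dendritic cells taken from lymph nodes and kept in culture. The stimulus was Pam3CSK4, a synthetic TLR2 lipopeptide, whose labelled dose of 1 mg/ml could not be checked, and there were 2 arrays, A and B, for each genotype and time. The 0 h arrays of both genotypes are cells without the lipopeptide. The labels name no Cre driver, no deleted exon, no age and no sex, and they do not tell separate animals or cultures from repeats, so p-values measure the spread between these arrays, which may be technical.

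Mapk14 encodes p38α, a protein kinase switched on by stress and cytokines. In myeloid cells it acts downstream of Toll-like receptors through the kinases MK2 and MSK, which act on the stability of messenger RNAs with AU-rich elements and on CREB and ATF1 at chromatin. Among its known targets in macrophages are feedback genes such as Dusp1, the phosphatase that switches p38 off again. Lymph node dendritic cells take up antigen, mature and prime T cells, and a digest of lymph node also holds macrophages, B cells, T cells and stroma.

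Levels are given as log2(signal + 16) after quantile normalisation between arrays, and each was fitted with limma as a genotype difference common to the 3 times. Differences are KO minus WT, errors after ± are standard errors of the fit with 6 arrays per genotype, and a fold change on this scale understates that of dim genes. A gene is called at a Benjamini-Hochberg adjusted p under 0.05 over 12791 genes. Of those genes 1319 (10.3%) were called, 785 higher in KO (6.14%) and 534 lower (4.17%), and 2934 had an unadjusted p under 0.05. The counts given below for gene lists are to be read against these shares, and no list was itself tested. The differences were mostly small, with a median size of 0.30 among called genes, and 49 genes were at least 1.5-fold higher and 50 at least 1.5-fold lower. On the deposited, unnormalised scale the split turned to 68 higher and 710 lower, with the median gene at -0.12 in place of 0.03, and 559 genes were called on both scales. With the array medians of the deposited values set equal the split was 394 higher and 999 lower, with the median gene at -0.01. The balance of higher and lower calls thus depended on the scaling, and the cause was not tested. In RNA of a whole culture, fewer cells of a type and less RNA per cell cannot be told apart, and the same holds for more.

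The array summaries bear on that scale. The deposited trimmed means ran from 66.6 to 119 and the medians from 14.6 to 21.2, and the arrays of a group correlated at 0.987 to 0.990 after normalisation. The first principal component of the normalised values held 36.5% of the variance and the second 18.0%. The third, with 11.4%, separated the genotypes without overlap, at 7.63 to 11.4 for the KO arrays and -13.9 to -7.58 for the WT arrays.

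**Figure D1:**
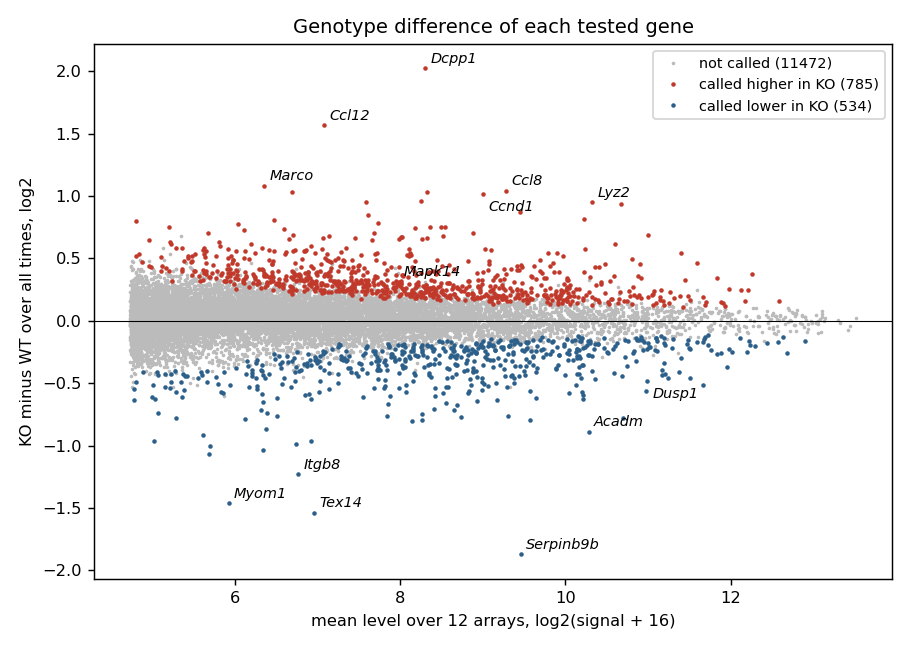
Genotype difference (KO minus WT, log2, vertical axis) of each of the 12791 tested genes against its mean level over the 12 arrays (log2(signal + 16), horizontal axis). The 785 genes called higher in KO are red, the 534 called lower are blue, and Serpinb9b at -1.87 and Dcpp1 at 2.02 lie farthest from 0.

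The labels could be checked against Mapk14 only in part. Its brightest probe set read 7.44, 7.76 and 8.41 as the lowest, median and highest of the WT arrays, and 7.93, 8.06 and 8.37 of the KO arrays. The ranges overlapped, and the arrays labelled KO were higher by 0.31 ± 0.08 (adjusted p = 0.015), by 0.15 at 0 h, 0.46 at 2 h and 0.33 at 4 h. The call was lost on the deposited scale (0.13, adjusted p = 0.62), with equal array medians (0.25, adjusted p = 0.053), with the mean of all probe sets, without the variance trend, and without the 2 h or the 4 h arrays. Of the 6 Mapk14 probe sets 3 passed the expression filter, and 1 of the 6 lay lower in KO, by -0.12 and below that filter. Where the probe sets lie relative to the deleted part is not given in the sources used here, so every direction given is one between array labels. None of the 5 tested sex-linked genes was called, and Eif2s3y, on the Y chromosome, read 8.44 to 8.75 on WT arrays and 8.57 to 8.71 on KO arrays. Of the 25 named genes on each side of Mapk14 on chromosome 17, 40 were tested. Of these 1 was called higher and 3 lower, against 6.14% and 4.17% of all tested genes. The higher count was 0 without KO 0 h B, WT 0 h A, WT 2 h A, WT 4 h B or either KO array of 2 h, and the lower 1 without WT 0 h B or WT 2 h B. Of the 634 tested genes of chromosome 17, 9.94% were called, within the range of the autosomes and X, 6.49% (X) to 12.6% (chromosome 11).

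The dendritic cell label could be checked against its markers. Fscn1, the actin-bundling protein of mature dendritic cells, averaged 13.46 on WT and 13.38 on KO arrays, and Ccl22, a chemokine of mature dendritic cells, 12.41 and 12.45. Flt3, the growth factor receptor of dendritic cell precursors and conventional dendritic cells, averaged 10.15 on WT arrays with a difference of -0.15, and Zbtb46, a transcription factor of conventional dendritic cells, 9.08 on both. Cd74, the MHC class II invariant chain, averaged 11.54 and 11.69. None of these 5 was called, and all lay far above the expression filter of 4.73. They do not stand for their whole lists, in which other dendritic cell markers were called in both directions. Batf3 (0.44) and Itgax (0.50) were higher, for example, and Anxa3 (-0.26) and Ccr7 (-0.17) lower. Langerin (Cd207), the marker of Langerhans cells, and Xcr1, the receptor of cross-presenting dendritic cells, were near the filter in both genotypes, at 5.16 and 4.91 and at 4.70 and 4.79.

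The gene with the smallest p was Serpinb9b, a serpin B of the granzyme inhibitor family, which was lower in KO arrays at every time. At 0 h the WT arrays read 9.95 and 9.95 and the KO arrays 8.23 and 7.98. At 2 h they read 10.43 and 10.53 against 8.70 and 8.55, and at 4 h 10.79 and 10.72 against 8.84 and 8.85. The lowest WT array thus lay above the highest KO array, and both genotypes moved up with time by similar steps. The difference was -1.87 ± 0.05 (adjusted p = 7.4e-14), or 3.66-fold, and by time -1.84, -1.86 and -1.91. Other serpin B genes of the same chromosome 13 cluster, looked at after this value was seen, gave both lower and higher calls. Serpinb1a, an inhibitor of neutrophil proteases, was lower by -0.56 ± 0.06 (adjusted p = 4.6e-06) and Serpinb1b by -0.38 ± 0.11 (adjusted p = 0.032). Serpinb6a was higher by 0.40 ± 0.06 (adjusted p = 0.00018, and 0.43 on the deposited scale). Serpinb9, the granzyme B inhibitor next to Serpinb9b, differed by -0.08 ± 0.04 (adjusted p = 0.17) and Serpinb6b by -0.09 (adjusted p = 0.29). Serpinb6e (-0.10) and Serpinb6c (0.22) were not called either. The 250 bases before the Serpinb9b start at chr13:33027164-33027413 (plus strand, GRCm38.p6, RefSeq) are shown because this is the gene with the smallest p. Capitals mark GAGGAA, a form of ETS site, read here on the reverse strand as TTCCTC.
Serpinb9b: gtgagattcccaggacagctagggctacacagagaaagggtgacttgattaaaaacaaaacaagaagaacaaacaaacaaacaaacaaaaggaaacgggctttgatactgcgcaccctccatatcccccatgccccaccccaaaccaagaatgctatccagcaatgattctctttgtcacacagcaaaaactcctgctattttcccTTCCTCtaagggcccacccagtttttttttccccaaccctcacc

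Next in size among the lower genes came Tex14, a kinase-like protein of germ cell bridges, and Myom1, a protein of the sarcomere M-line. Tex14 ran at 6.86, 7.75 and 8.60 (lowest, median, highest) on WT arrays and at 5.56, 6.34 and 6.67 on KO arrays, a difference of -1.54 ± 0.08 (adjusted p = 2.7e-09). No KO array reached the lowest WT array. Myom1 read lower at the later times in both genotypes, and its ranges of 5.60 to 7.53 and 4.19 to 5.97 overlapped across times but at no single time. Its difference was -1.46 ± 0.12 (adjusted p = 3.3e-07).

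Itgb8, the integrin subunit that with the αv chain activates latent TGF-β, was lower by -1.23 ± 0.12 (adjusted p = 3.2e-06). Before the lipopeptide the WT arrays read 6.29 and 6.21 and the KO arrays 5.44 and 5.15. At 2 h the WT arrays, at 8.07 and 8.31, were above KO at 6.62 and 6.43. At 4 h both KO arrays, at 6.50 and 6.79, lay below the lower WT array, at 7.43. Both genotypes had more Itgb8 signal after the lipopeptide, and KO lay below WT at each time, by -0.96, -1.67 and -1.07. Its partner Itgav differed by -0.01 (adjusted p = 0.89) and Tgfb1 by -0.01 (adjusted p = 0.99), although Tgfb1 was dim. Of the 28 tested integrin, adhesion and TGF-β genes 3 were higher and Itgb8 alone was lower. The higher ones were Itgb2, the β chain of leukocyte integrins (0.44 ± 0.05, adjusted p = 1.6e-05), Itgax, the CD11c chain (0.50 ± 0.08, adjusted p = 0.00035), and Tgfbi, a secreted matrix protein (0.39 ± 0.05). Those 3 were not called on the deposited scale, and Itgb8 was.

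Several lower genes are enzymes or transporters. Acadm, the medium-chain acyl-CoA dehydrogenase of fatty acid oxidation, ranged from 10.34 to 11.34 on WT and from 9.19 to 10.67 on KO arrays, a difference of -0.89 ± 0.07 (adjusted p = 1.8e-07). The ranges overlapped only across times, and the time-specific values were -0.69 (0 h) and -1.20 (4 h). Aldh1a2, the enzyme that makes retinoic acid in dendritic cells, ran at 6.71, 6.79 and 6.96 on WT and at 5.65, 5.91 and 6.26 on KO arrays, without overlap, and differed by -0.86 ± 0.09 (adjusted p = 7e-06). Slc7a11, the cystine transporter, ran at 8.61, 8.64 and 8.96 on WT and at 7.93, 8.09 and 8.34 on KO arrays. It too did not overlap, with a difference of -0.61 ± 0.05 (adjusted p = 3.2e-07). Of the dimmer genes among the 12 lowest, Calm4, Etfbkmt, Plekhs1, Rnf152, Zfp819 and Slc6a4 (the serotonin transporter) differed by -0.91 to -1.07.

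**Figure D2:**
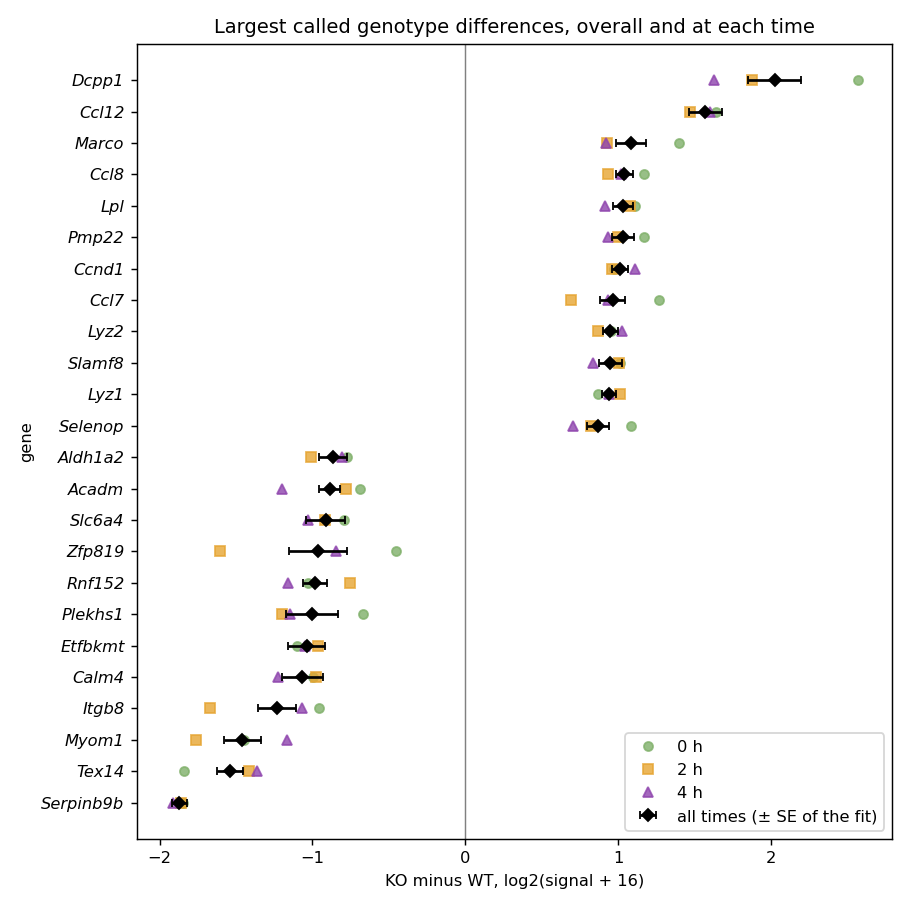
KO minus WT differences in log2(signal + 16) (horizontal axis) of the 12 highest and 12 lowest called genes whose arrays did not overlap at any time. Black diamonds are the difference over all times with its standard error, and coloured marks are the differences at 0, 2 and 4 h, which for Serpinb9b lie between -1.84 and -1.91 and for Dcpp1 spread from 1.62 to 2.57.

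Among the higher genes were 4 monocyte-attracting CC chemokines that are neighbours on chromosome 11. Ccl12 ran at 5.96, 6.26 and 6.75 on WT arrays and at 7.62, 7.87 and 8.02 on KO arrays, without overlap, and was 2.97-fold higher (1.57 ± 0.11, adjusted p = 5.8e-08). Ccl8, a ligand of several CC chemokine receptors, ran at 8.59, 8.77 and 8.88 on WT and at 9.54, 9.84 and 9.98 on KO arrays, also without overlap (1.04 ± 0.06, adjusted p = 3.4e-09). Without stimulus the WT arrays of Ccl12 read 6.22 and 6.32, and after 4 h 6.27 and 6.25, so its level before and after the lipopeptide was close. Ccl7 (0.96 ± 0.08, adjusted p = 6.4e-07) and Ccl2 (0.82 ± 0.07, adjusted p = 2.8e-07) are ligands of CCR2, the receptor by which monocytes leave the marrow. Both had a smaller difference at 2 h (0.69 and 0.61) than at 0 h (1.27 and 1.00) or 4 h (0.93 and 0.84), a change with time that was not called. In gene order the cluster reads Ccl2, Ccl7, Ccl11, Ccl12, Ccl8 and Ccl1. Ccl11 was below the expression filter, and Ccl1 differed by -0.20 ± 0.09 (adjusted p = 0.16). All 4 called genes kept their call on the deposited scale and with any array left out.

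Because Ccl12 and Ccl8 lie side by side and differed most in this cluster, the 250 bases before each start are given (GRCm38.p6, RefSeq, chr11:82101595-82101844 and chr11:82114935-82115184, plus strand). Capitals mark TATAAA, the TATA box, searched on the forward strand, and GAGGAA on either strand.
Ccl12: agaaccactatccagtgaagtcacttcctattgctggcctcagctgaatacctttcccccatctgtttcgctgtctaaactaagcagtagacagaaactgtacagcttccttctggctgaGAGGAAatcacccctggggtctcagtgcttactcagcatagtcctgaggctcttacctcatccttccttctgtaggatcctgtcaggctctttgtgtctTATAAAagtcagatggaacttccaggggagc
Ccl8: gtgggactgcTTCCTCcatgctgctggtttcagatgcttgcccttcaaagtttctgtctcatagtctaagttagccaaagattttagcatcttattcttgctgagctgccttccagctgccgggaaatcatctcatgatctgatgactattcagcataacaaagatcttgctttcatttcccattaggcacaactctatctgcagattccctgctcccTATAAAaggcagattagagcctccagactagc
Aligned, these windows were identical at 54.5% of 266 columns, and each held TATAAA, 31 and 32 bases before the start. Promoter windows were searched over the 250 bases before each start. Of 14 such windows of 9 of the 12 highest genes, 21.4% held TATAAA and 35.7% GAGGAA, against 7.59% and 23.3% of all 32851 windows. Of the 12 windows of the 12 lowest genes 0% and 8.33% held them. Those 2 motifs were chosen after the sequences had been seen. Of the 14 windows Pmp22 gave 4 and Selenop 3. Overlapping Selenop windows held the same GAGGAA site, so the windows are not independent. The motifs TGACGTCA (CRE), TGANTCA (AP-1) and GGGANTTCC (kB), searched on both strands, were in 0 of the 14 and 0 of the 12 windows, against 1.55%, 6.75% and 1.43% of all windows, so these letters were not in these windows.

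Of all 25 tested chemokines 8 were higher and 2 lower, and the median of the list was 0.08, against 0.03 over all genes. Besides the 4 above, Ccl3 (0.44 ± 0.06) and Ccl4 (0.33 ± 0.06), inflammatory CC chemokines, and Cxcl9 (0.61, adjusted p = 0.00029) and Cxcl10 (0.22, adjusted p = 0.0073), ligands of CXCR3, were higher. Ccl3, Ccl4 and Cxcl10 lost their call on the deposited scale, where 5 chemokines were higher. The lower ones, Cxcl3 (-0.30) and Cxcl16 (-0.14), were 0 in number without KO 0 h A or KO 4 h A and 1 without any other array except KO 2 h A. Chemokines that dendritic cells are known to make were also among those not called, with Ccl5 at -0.03, Ccl22 at 0.04, Ccl17 at -0.14 and Cxcl1 at 0.04. Of 14 chemokine receptors 0 were higher and 3 lower. Cxcr4, the receptor for CXCL12, started higher in WT, where the brighter 0 h array read 10.14, than on the KO arrays, 9.25 and 9.27. It read lower later in both, with 8.49 and 8.32 (WT, 4 h) against 7.54 and 7.58. Its difference was -0.71 ± 0.07 (adjusted p = 1.4e-06). Ccr7, which guides dendritic cells to lymph nodes, differed by -0.17 ± 0.03 (adjusted p = 0.0043) and lost that call with trimmed-mean scaling (-0.08, adjusted p = 0.49), with equal array medians (adjusted p = 0.073), without the variance trend (adjusted p = 0.074) and without the 2 h arrays.

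Genes typical of tissue macrophages were higher as a group. Of the 19 tested complement, lysozyme and lipoprotein genes 14 were higher and 0 lower, with a median of 0.46, 1 was lower without WT 0 h B, and 8 were called on the deposited scale. Lyz2, the myeloid lysozyme, ran at 9.48, 9.81 and 10.22 on WT and at 10.53, 10.71 and 11.12 on KO arrays. The ranges did not overlap, and the difference was 0.95 ± 0.05 (adjusted p = 1.1e-09). It was 0.96, 0.87 and 1.03 at the 3 times, while the levels read lower at the later times in both genotypes. Lyz1 differed by nearly as much (0.94 ± 0.05, adjusted p = 1.1e-09), but it is a near copy of Lyz2. Its 2 responding probe sets are of the kind that can bind related transcripts, and its remaining probe set, at 5.05, differed by 0.04 (adjusted p = 0.92), so the Lyz1 value is uncertain. The 250 bases before the 2 starts (minus strand, chr10:117292869-117293118 and chr10:117282273-117282522) are given to show how alike the copies are, with 79.4% identity over 252 aligned columns. They held none of the motifs in the letters searched and are therefore all in lower case. Other forms of ETS site were not searched.
Lyz1: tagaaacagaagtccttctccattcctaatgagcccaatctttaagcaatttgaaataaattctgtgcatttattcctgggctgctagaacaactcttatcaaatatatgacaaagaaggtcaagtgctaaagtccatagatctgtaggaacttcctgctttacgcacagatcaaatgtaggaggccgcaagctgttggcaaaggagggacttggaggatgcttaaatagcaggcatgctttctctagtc
Lyz2: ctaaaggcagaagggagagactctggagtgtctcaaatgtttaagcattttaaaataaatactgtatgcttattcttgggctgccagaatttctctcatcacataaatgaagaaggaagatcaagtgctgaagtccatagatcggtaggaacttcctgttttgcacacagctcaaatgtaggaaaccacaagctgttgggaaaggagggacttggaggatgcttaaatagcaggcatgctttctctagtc

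The 3 C1q chains, which form the recognition unit of the classical complement pathway and are adjacent on chromosome 4, were all higher. C1qa ran at 7.60, 7.78 and 8.09 on WT and at 8.28 and 8.43 on the lowest and the median of the KO arrays, without overlap (0.75 ± 0.07, adjusted p = 3.2e-06). C1qb differed by 0.66 ± 0.06 (adjusted p = 2.4e-06) and C1qc by 0.67 ± 0.08 (adjusted p = 2.6e-05). Lpl, the lipoprotein lipase, ran at 7.45, 7.64 and 8.35 on WT and at 8.37, 8.72 and 9.38 on KO arrays (1.03 ± 0.07, adjusted p = 2.1e-08). Even its lowest KO array was above the highest WT array. Apoe, the ligand for lipoprotein receptors, was higher by 0.71 ± 0.06 (adjusted p = 1.1e-06), Gpnmb, a glycoprotein of lipid-laden macrophages, by 0.46 ± 0.05, and Fabp4, a fatty acid carrier, by 0.52 ± 0.07. Selenop, the plasma selenium carrier that macrophages also make, was higher by 0.87 ± 0.07 (adjusted p = 3.2e-07).

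Some receptors were higher too. Of 21 scavenger and apoptotic-cell receptors 4 were higher and 1 lower, against 6.14% and 4.17% of all tested genes, with a median of 0.17. Marco, a scavenger receptor for bacteria and particles, ran at 5.32, 5.89 and 6.14 on WT and at 6.73, 6.91 and 7.15 on KO arrays, without overlap (1.08 ± 0.10, adjusted p = 8.2e-07). Cd68, a lysosomal glycoprotein of macrophages, was higher by 0.43 ± 0.05, Axl, a receptor for apoptotic cells, by 0.38 ± 0.07 and Msr1, scavenger receptor A, by 0.50 ± 0.12. Timd4, a phosphatidylserine receptor, was lower by -0.40 (adjusted p = 0.022), and the count of lower members was 0 without KO 0 h B, KO 4 h A, WT 0 h A, WT 0 h B, WT 2 h B or WT 4 h A. Mertk (0.29, adjusted p = 0.054), Stab1 (0.17), Mrc1 (0.16) and Cd36 (0.03) were among those not called. On the deposited scale Marco remained as the only higher receptor of this list. Of 16 Fc receptors and ITAM adaptors 6 were higher and 0 lower, among them Fcgr3 (0.54 ± 0.11, adjusted p = 0.0041) and Fcgr1 (0.36 ± 0.09, adjusted p = 0.014). The adaptor Tyrobp, brightest of the list at 11.3 in both genotypes, differed by 0.01 (adjusted p = 0.96), and Fcgr2b (0.12) was not called either. The count of higher members was 3 without KO 0 h A, KO 4 h B or WT 4 h B, and 0 on the deposited scale.

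Macrophage and monocyte markers moved with these genes. Of 13 tested markers 10 were higher and 0 lower (median 0.49), with 6 on the deposited scale. Csf1r, the growth factor receptor of macrophages, was higher by 0.49, Adgre1, the F4/80 antigen, by 0.69 and Vcam1 by 0.35, while Cd14 differed by -0.11 (adjusted p = 0.29) and Ccr2 by 0.09 (adjusted p = 0.70). The summed signal of all listed markers with a probe set was 3252 to 4005 on WT arrays and 4919 to 6076 on KO arrays. On KO arrays it was 1.53 times as high on average and without overlap. Lyz2 was the brightest of the tested markers, at 9.85 on WT and 10.80 on KO arrays, and weighs most in this linear sum. Siglec1 and Cd163 were below the filter, and the sum includes them. Several genes (Lyz2, Marco, Cd68 and the C1q chains) stand in both the marker list and the lists above. The part of macrophage content in the differences above was not tested.

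**Figure D3:**
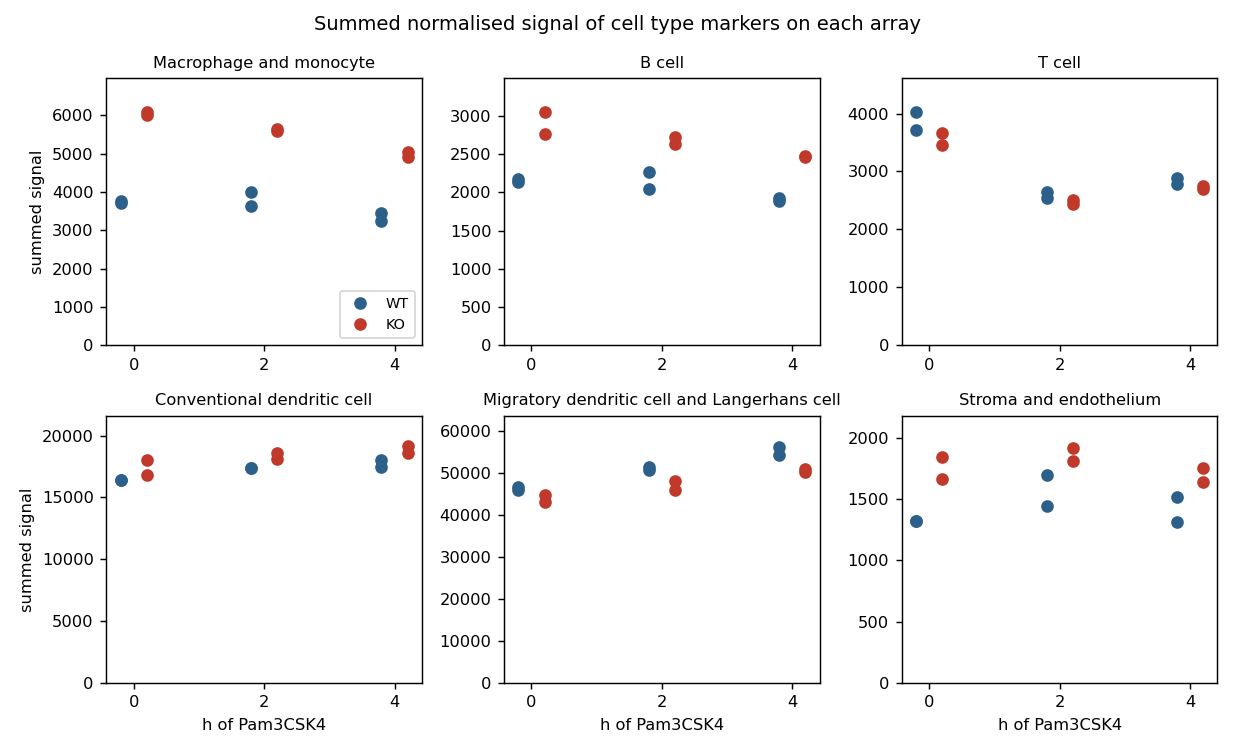
Summed normalised signal of the listed markers of 6 cell types that have a probe set (vertical axes, linear signal from 0) on each array against hours of Pam3CSK4. Markers below the filter are included, and WT is in blue and KO in red, set slightly apart for clarity. Macrophage and monocyte sums were 4919 to 6076 on KO and 3252 to 4005 on WT arrays, and B cell sums also did not overlap.

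Other cell types gave smaller shifts, with counts to be read against 6.14% higher and 4.17% lower of all tested genes. The B cell markers had 4 of 14 higher and 0 lower (median 0.20), and 0 called on the deposited scale. Their summed signal, with markers below the filter included, was 1883 to 2270 on WT and 2463 to 3060 on KO arrays. Bank1 (0.50 ± 0.07), Cd79b (0.47 ± 0.08) and Ighm (0.43 ± 0.06), parts of B cell receptor signalling, were higher. Ighm was the brightest of the tested B cell markers, at 10.14 on WT and 10.57 on KO arrays, and weighs most in the linear sum. With the mean of all its probe sets Ighm differed by 0.03 (adjusted p = 0.81). Ms4a1 (CD20) differed by 0.21 (adjusted p = 0.095), Cd79a by 0.04 (adjusted p = 0.88), and Pax5 was below the filter. Stroma and endothelium markers had 4 of 13 higher and 0 lower. These were Pdpn, podoplanin (0.75 ± 0.06, adjusted p = 5e-07), Lyve1, Cdh5 and Pecam1, which include markers of lymphatic and blood vessels. Not called were Kdr, an endothelial receptor at 8.39 on both genotypes (-0.001, adjusted p = 0.996), Dcn (0.13), Col1a2 (0.17) and Acta2 (0.03). Cdh5 and Pecam1 lost their call on the deposited scale (adjusted p = 0.56 and 0.52) and without the 0 h or the 2 h arrays. The T cell list had 3 of 15 higher and 2 lower, with Cd5 up by 0.49 ± 0.09 and Cd8b1, the CD8 β chain, down by -0.42 ± 0.06 (adjusted p = 0.00016). Cd3d (0.08) and Cd3e (-0.05) were not called. NK and innate lymphoid markers had 1 of 10 higher and 1 lower, against 6.14% and 4.17% of all tested genes. Neutrophil markers had 0 of 7 called, erythroid and platelet markers 0 of 4 and mast cell and basophil markers 0 of 3. Plasmacytoid dendritic cell markers had 1 of 10 higher and 2 lower, the higher being Cox6a2 (0.79 ± 0.06, adjusted p = 3.3e-07), a muscle-type cytochrome oxidase subunit, and the lower count was 0 without KO 4 h B and 1 without any other array except KO 2 h B and WT 0 h B. The higher count was 2 without WT 2 h A. Of the NK counts, the higher was 0 without KO 0 h A, KO 4 h A or WT 4 h B and the lower 0 without KO 2 h B. The part of these cell types in the genotype differences was not tested.

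Among dendritic cell markers the conventional list had 7 of 16 higher and 0 lower (median 0.12), and 0 on the deposited scale. Batf3, a transcription factor of cross-presenting dendritic cells, was higher by 0.44 ± 0.05 (adjusted p = 1.7e-05) and Itgax by 0.50, while Flt3 (-0.15, adjusted p = 0.12) and Zbtb46 (0.00, adjusted p = 0.99) were not called. The count was 4 without KO 0 h B, and 1 gene was lower without WT 4 h A. The migratory list went the other way, with 2 of 15 higher and 5 lower and a median of -0.14. Anxa3 (-0.26 ± 0.03, adjusted p = 6.8e-05), Ccr7, Socs2, Relb and Mreg were lower and Eno3 (0.38) and Nudt17 (0.32) higher. The lower count fell to 1 without the 2 h arrays and to 2 without the 4 h arrays.

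MHC class II genes were higher in part. Of 16 tested members 6 were higher and 0 lower, with a median of 0.12. H2-Ab1, the β chain of I-A, ran at 10.44, 10.68 and 10.91 on WT and at 11.02, 11.13 and 11.28 on KO arrays, without overlap (0.46 ± 0.05, adjusted p = 1.9e-05). H2-DMa (0.53 ± 0.06, adjusted p = 1.2e-05) and H2-DMb2 (0.54 ± 0.09, adjusted p = 0.00054), chains of the peptide exchange factor, and H2-Eb1 (0.25 ± 0.04, adjusted p = 0.00025) were higher as well. H2-Aa, Cd74 (0.15, adjusted p = 0.11) and the transactivator Ciita were not called. On the deposited scale 0 members were called, and with equal array medians 6 were higher. Of 17 MHC class I loading genes 1 was higher and 1 lower, against 6.14% and 4.17% of all tested genes. The higher count stayed at 1 without KO 2 h B, WT 2 h A, WT 2 h B or WT 4 h B and was 0 without any other array, and the lower was 0 without KO 0 h A, KO 4 h B, WT 4 h A or any array of 2 h. Macrophages and B cells carry MHC class II too, and their marker sums are those given above. Their part in the MHC class II differences was not tested.

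Of 29 lysosome and autophagy genes 7 were higher and 0 lower (median 0.13), 1 was lower without WT 0 h B, and 0 were called higher on the deposited scale. The proteases Ctsa (0.38 ± 0.05, adjusted p = 2.8e-05), Ctsb (0.33 ± 0.04) and Ctsd (0.33 ± 0.05) and the glycosidases Gla (0.35) and Naglu (0.46) were among them. Ctsz, Lamp1 and Lamp2 were not called.

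**Figure D4:**
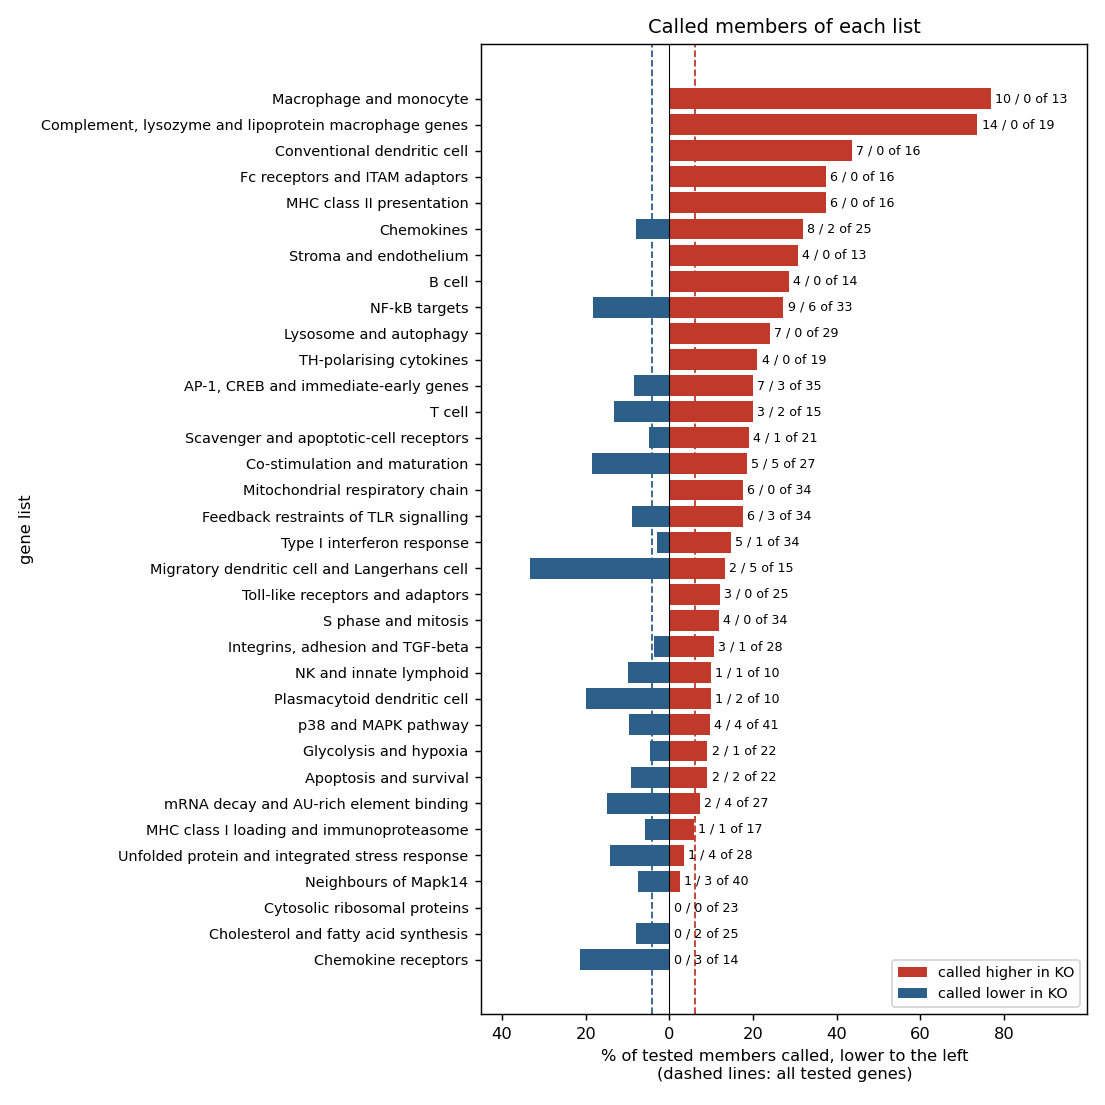
Share of the tested members of each gene list called higher (red, right) or lower (blue, left) in KO arrays, in percent, with counts as higher / lower of tested, for lists with at least 10 tested members. Dashed lines mark the shares over all tested genes, 6.14% higher and 4.17% lower, and the macrophage lists extend farthest to the right.

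Of the p38 and MAPK pathway list 41 members were tested, and 4 were higher and 4 lower, against 6.14% and 4.17% of all tested genes. Dusp1, the phosphatase that inactivates p38 and JNK, ran at 11.16, 11.21 and 11.37 on WT and at 10.67, 10.75 and 10.85 on KO arrays. No KO array reached a WT array, and the difference was -0.49 ± 0.04 (adjusted p = 2.7e-07), with -0.48, -0.43 and -0.54 by time. Dusp5, a nuclear ERK phosphatase, was lower by -0.32 ± 0.05 (adjusted p = 0.0006), Map3k14, the NIK kinase of alternative NF-kB signalling, by -0.38 ± 0.07 (adjusted p = 0.0018), and Map3k1 by -0.32. On the deposited scale 4 members were lower as well. Besides Mapk14, Map3k5 (ASK1), Mknk1 and Mapk12 (p38γ) were higher, and the count of higher genes was 0 on the deposited scale and 0 without the 4 h arrays. The upstream kinase Map2k3 (0.01), the substrate kinases Mapkapk2 (MK2, -0.03) and Rps6ka5 (MSK1, -0.05) and the isoforms Mapk11 (0.22, adjusted p = 0.27) and Mapk13 (-0.19, adjusted p = 0.40) were not called.

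Feedback restraints of Toll-like receptor signalling went both ways, with 6 of 34 higher and 3 lower. Zfp36, the tristetraprolin that marks AU-rich messenger RNAs for decay, was lower by -0.28 ± 0.04 (adjusted p = 0.00032), and Socs3, a brake on IL-6 receptor signalling, was higher by 0.32 ± 0.06 (adjusted p = 0.0022, and 0 of the 6 higher genes were called on the deposited scale). In the list of mRNA decay and AU-rich element binding 2 of 27 were higher and 4 lower, against 6.14% and 4.17% of all tested genes. The higher count was 0 without KO 2 h B or WT 2 h B and 1 without KO 0 h A, KO 0 h B, KO 4 h B, WT 2 h A or either WT array of 0 h. The lower count was 2 without KO 0 h A, WT 0 h A or any array of 2 h.

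Of 33 NF-kB targets and subunits 9 were higher and 6 lower. Rel, the c-Rel subunit, ran at 9.38, 9.56 and 9.82 on WT and at 9.01, 9.15 and 9.28 on KO arrays. The ranges did not overlap, and c-Rel differed by -0.43 ± 0.05 (adjusted p = 9e-06), with -0.43, -0.36 and -0.51 by time. Relb (-0.17), Nfkbib, the inhibitor IκBβ (-0.27 ± 0.05), Traf1 (-0.18), Junb and Pim1 were lower too. The higher ones included Ccl3, Ccl4, Tnf, Icam1 (0.15) and Sod2 (0.14), and Nfkbie (0.18), whose sign turned on the deposited scale (-0.05). The higher count was 4 without KO 0 h A or WT 0 h A, 5 without KO 0 h B or WT 2 h B, and 0 on the deposited scale, where 7 were lower. The other 18 members, Nfkbia, Ptgs2, Cxcl2 and Tnfaip3 among them, were not called.

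Cytokines that polarise T helper cells were called in 4 of 19 cases, all higher. Il1a (0.48 ± 0.08, adjusted p = 0.001), Il33 (0.44 ± 0.06, adjusted p = 0.00015), Tnf (0.42 ± 0.09, adjusted p = 0.004) and Ebi3, the shared chain of IL-27 and IL-35 (0.40 ± 0.06, adjusted p = 0.00015), made up the group. None of the 4 was called on the deposited scale, and Tnf was not called without the 2 h or the 4 h arrays. Il12b differed by 0.00 ± 0.12, Il23a by -0.01 ± 0.11, Il6 by 0.04 ± 0.05 and Ifng by 0.00 ± 0.08. Il17a differed by -0.36 ± 0.13 (adjusted p = 0.086) and Il1b by -0.20 ± 0.06 (adjusted p = 0.057), neither past the threshold. The count of lower cytokines, 0 here, was 1 or 2 without KO 2 h A, KO 4 h A, WT 2 h B or WT 4 h B.

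The list of AP-1, CREB and immediate-early genes had 7 of 35 higher and 3 lower. Egr2 (0.55 ± 0.08), Maff (0.46 ± 0.06), Egr1 (0.39 ± 0.07, adjusted p = 0.0018) and Jun (0.30) were higher, and Junb (-0.24) and Klf4 (-0.30) lower. Fos, Atf3 and Creb1 were not called, and 0 members were higher on the deposited scale. Of 25 Toll-like receptors and adaptors 3 were higher (Tlr13, Ly86 and Cd180), against 6.14% of all tested genes, and 0 on the deposited scale. Tlr2, the receptor of the stimulus, differed by 0.16 (adjusted p = 0.18), its partners Tlr1 by -0.05 and Tlr6 by -0.14, and the adaptor Myd88 by 0.03. Of 34 type I interferon response genes 5 were higher and 1 lower, with Ifit2 at 0.31 ± 0.05 and Oasl1, an antiviral oligoadenylate synthetase-like protein, at -0.37 ± 0.05. The higher count was 8 without KO 0 h A or WT 0 h A and 0 on the deposited scale.

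Co-stimulation and maturation genes were split evenly, 5 higher and 5 lower of 27. Cd48 (0.48 ± 0.05, adjusted p = 6.2e-06) and Cd70, the ligand of CD27 (0.54 ± 0.10), were higher. Il15ra, which presents IL-15 to T cells (-0.32 ± 0.04, adjusted p = 0.00012), and Pdcd1lg2, the PD-1 ligand PD-L2 (-0.40 ± 0.07, adjusted p = 0.00073), were lower. The classical maturation markers Cd40 (0.06), Cd80 (-0.07), Cd86 (-0.04) and Cd83 (-0.10) were not called. On the deposited scale 0 were higher and 6 lower.

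**Figure D5:**
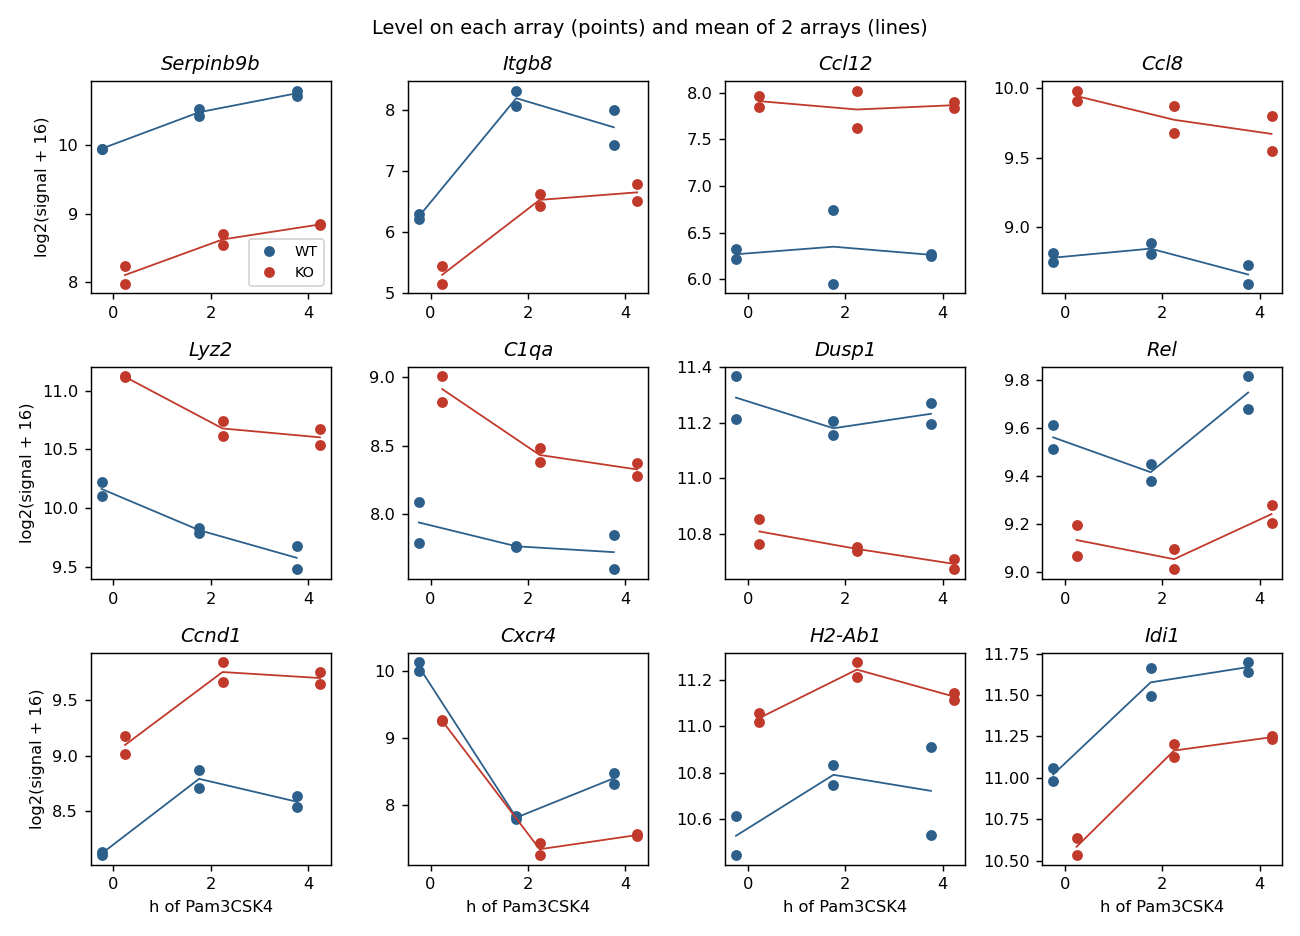
Levels in log2(signal + 16) (vertical axes, scaled per gene) of 12 genes on each array against hours of Pam3CSK4, WT in blue and KO in red, with lines joining the means of 2 arrays and the genotypes set slightly apart. Serpinb9b, Itgb8, Dusp1, Rel, Cxcr4 and Idi1 lie lower and Ccl12, Ccl8, Lyz2, C1qa, Ccnd1 and H2-Ab1 higher in KO at each time.

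Among cell cycle genes 4 of 34 were higher, led by a D-type cyclin, and 0 lower, against 6.14% and 4.17% of all tested genes. Ccnd1, cyclin D1, ran at 8.11, 8.59 and 8.87 on WT and at 9.01, 9.65 and 9.84 on KO arrays, without overlap (1.01 ± 0.05, adjusted p = 2.2e-09). Ccnd2, cyclin D2, was higher by 0.36 ± 0.05 and lost its call on the deposited scale. The mitotic kinase Cdk1 (0.40 ± 0.11, adjusted p = 0.029) and Mcm2, a subunit of the replicative helicase (0.33 ± 0.09, adjusted p = 0.029), were higher too. Both lost the call on the deposited scale, with no filter, without the variance trend, and without the 0 h or the 4 h arrays, and Cdk1 also without the 2 h arrays. With the mean of probe sets Mcm2 was at -0.027. Among single arrays, Cdk1 was not called without KO 0 h A, KO 2 h B, KO 4 h B, WT 0 h A, WT 2 h A or WT 4 h B, and Mcm2 without KO 0 h A, KO 2 h B, WT 0 h B, WT 2 h B or any array of 4 h. The proliferation markers Mki67, Top2a and Pcna were not called, and the list's count was 2 without KO 0 h A, KO 2 h B, KO 4 h B or WT 4 h B.

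Metabolic lists moved little. The counts of this paragraph are to be read against 6.14% higher and 4.17% lower of all tested genes. Of 25 cholesterol and fatty acid synthesis genes 0 were higher and 2 lower (median -0.08). Idi1, the isopentenyl diphosphate isomerase, differed by -0.42 ± 0.04 (adjusted p = 1.1e-06), with -0.44, -0.41 and -0.42 by time, and Cyp51, the lanosterol demethylase, by -0.29 ± 0.05. With equal array medians 10 of the 25 were lower. Of 34 mitochondrial respiratory chain genes 6 were higher by 0.14 to 0.24 (median of the list 0.09), but Ndufb3, Atp5c1 and Ndufa9 turned sign on the deposited scale. Of 22 glycolysis and hypoxia genes 2 were higher and 1 lower, with 1 higher without KO 0 h A, KO 0 h B, KO 2 h B, KO 4 h B, WT 2 h B or either WT array of 4 h. Ldha, lactate dehydrogenase A, was higher by 0.39 ± 0.05 and Pfkfb3, which makes the activator of phosphofructokinase, lower by -0.30 ± 0.05. Of 28 unfolded protein and integrated stress response genes 1 was higher and 4 lower, led by Slc7a11, and 2 lower where either WT array of 4 h was left out. The higher count was 3 without KO 2 h A and 2 without KO 4 h B or WT 0 h A. Of 22 apoptosis genes 2 were higher (1 without any single array but KO 2 h A and WT 2 h A) and 2 lower, and Birc2, the ubiquitin ligase cIAP1, read 11.30 to 11.43 on WT and 10.87 to 11.17 on KO arrays (-0.39 ± 0.04, adjusted p = 9.4e-06). Of 23 cytosolic ribosomal protein genes 0 were called, and 1 was higher without KO 0 h A or WT 0 h B.

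The largest difference of all was that of Dcpp1, a demilune cell and parotid protein, on chromosome 17 at 117 tested genes from Mapk14. It ran at 6.82, 7.26 and 7.78 on WT and at 8.70, 9.33 and 9.74 on KO arrays, without overlap, and differed by 2.02 ± 0.18 (adjusted p = 6.4e-07), or 4.06-fold. The arrays of a group were far apart for this gene (WT 4 h, 7.75 and 6.82), and it has near-identical copies, so the value is uncertain. Pmp22, a myelin and epithelial membrane protein (1.03 ± 0.07), and Slamf8, a receptor of the SLAM family on macrophages (0.95 ± 0.08), completed the 12 highest.

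The genes were called on a difference common to the 3 times, so their signs by time are a description only. Of the 785 higher genes 777 had the same sign at all 3 times, and of the 534 lower genes 531 did. KO arrays lay above all WT arrays at each of the 3 times in 744 of all tested genes (5.82%) and below them in 465 (3.64%), and 550 and 389 of these were called. The median difference of the called higher genes was 0.32 at 0 h, 0.28 at 2 h and 0.28 at 4 h, and of the lower genes -0.31, -0.32 and -0.30. A change over time common to both genotypes was called in 5257 genes (41.1%), among them 566 of the higher and 412 of the lower genes. A genotype difference that itself changed with time was called in 9 genes (0.0704%), with 857 at an unadjusted p under 0.05, and 3 of the 9 were also called in the common difference. Those 3 were Cd81, a tetraspanin (0.95 at 0 h, 0.35 and 0.32 later), Col27a1, a fibrillar collagen (1.34, 0.34 and 0.44), and Dnah2, a dynein heavy chain (-0.13, -1.55 and -0.71).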

How the data were processed

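RNA of cultured lymph node dendritic cells had been labelled by 3' in vitro transcription and hybridised to 12 Affymetrix mouse arrays, per the labels' protocols. The authors deposited linear intensity values for every probe set, made with MAS5 per the submitters' processing notes. For MAS5, version, scaling target and detection calls are not given in the sources used here. Array number, 2 per group, limits the precision, and no count of reads or depth applies.

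The array has 45101 probe sets, of which the platform annotation gives 34945 a single symbol, 932 several and 9160 none, with 64 controls. Of the single-symbol probe sets 34741 matched a RefSeq gene table (GRCm38.p6) by Entrez identifier, which was used for names and gene order, and 0 symbols changed. The probe set with the highest mean stood for each of 18193 genes, 9010 of which had several. Genes at or above the 40th percentile of all probe sets (4.73 in log2, a signal of 10.6) were tested, 12791 of them, and 5402 lay below.

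The linear values were quantile normalised between arrays, and log2(signal + 16) was fitted with limma 3.58.1 in R 4.3.3 (eBayes with trend, 8 residual and 9.15 prior degrees of freedom) with genotype and time as additive terms. Genotype by time was tested by a moderated F test from a fit of 6 group means. All tests are two-sided, and p-values were Benjamini-Hochberg adjusted over every tested gene. The median standard error was 0.0905 and the median SD of the arrays of a group 0.145. Both fits were tested on simulated data. A simulated genotype difference of 0.3 was recovered in 16% of genes and one of 0.5 in 78%. For a difference present at 2 h only, the interaction test recovered 4% at 0.5 and 54% at 1, so smaller changes with time could be missed.

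Members, lists, tests and the naming rule were chosen with earlier results of these data known. Named by rule were Mapk14, the sex-linked genes, the 12 highest and 12 lowest called genes whose arrays did not overlap at any time (clone-like names and antigen receptor segments passed over), up to 4 called members of each list by smallest p, and the 6 called genes with the smallest interaction p. Other list members and the gene clusters on chromosomes 4, 11 and 13 were picked after their values had been seen. In all 38 lists were described, 11 of them cell type markers, with no test of the list itself. Promoter windows came from a RefSeq table, which held 9 of the 12 highest and 12 of the 12 lowest genes. Among named genes, probe sets of Bid, Casp9, Ccr9, Cmpk2, Cyp51, Edem1, Icos, Ighm, Irf8, Khsrp, Klk1, Mcm2, Ndrg1, Tapbpl and Zfp36l2 disagreed in sign.

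Alternatives were other scalings (the deposited scale, trimmed-mean scaling and, added after seeing the data, equal array medians), pseudocounts, filters and rules for probe sets. Others were no variance trend, 6 group means, replicate letters as a block, other thresholds, and leaving out each array or time.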

Additional observations from a re-analysis of the deposited data

Results flagged for a closer look

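In 9 genes the genotype difference changed between the times by limma's moderated F test (adjusted p under 0.05 over 12791 genes). Groups of 2 arrays were too small to look for single outlying arrays. Dnah2, an axonemal dynein chain, had the smallest p (adjusted p = 0.00203). Before stimulation the WT arrays read 11.13 and 10.92 and the KO arrays 10.85 and 10.94. The 2 h values were 10.51 and 10.18 against 8.77 and 8.82, and those of 4 h were 8.55 and 8.54 against 7.86 and 7.80. The genotypes were thus close at 0 h and apart at 2 h, by -1.55. Ccl6, a CC chemokine of myeloid cells, was higher in KO by 1.04 at 0 h and lower by -0.30 and -0.29 later (adjusted p = 0.00355). Ccl9, its neighbour on chromosome 11, was higher by 0.78 at 0 h, with -0.04 and 0.02 later (adjusted p = 0.0365). Malt1, the protease of the CARD-BCL10-MALT1 complex, differed by -0.86, -0.24 and 0.13 (adjusted p = 0.0119). Col27a1 differed by 1.34, 0.34 and 0.44 (adjusted p = 0.021) and Cd81 by 0.95, 0.35 and 0.32 (adjusted p = 0.0327). Sphk1, which makes sphingosine 1-phosphate, differed by 0.62, 0.12 and -0.47 (adjusted p = 0.0327), and Procr, the protein C receptor, by 0.38, -0.39 and 0.07 (adjusted p = 0.0278). Clcn5, a chloride and proton exchanger, differed by 0.19, 0.19 and -1.40 (adjusted p = 0.0365), and its KO arrays at 2 h read 8.88 and 8.06. The total of such calls was 2 to 9 with 1 array left out, not necessarily the same genes, and 0 without the variance trend.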

How the results depend on the processing

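Of 133 called genes named by the rule, 50 kept their call under every alternative except the 2-fold threshold, 20 lost it without 1 array and 68 on the deposited scale. Genes higher and lower numbered 68 and 710 on the deposited scale, 394 and 999 with equal array medians, 7 and 7 with a log2 difference of at least 1, 393 and 383 without the 0 h arrays, 409 and 290 without 2 h, and 465 and 337 without 4 h. Trimmed-mean scaling gave 802 and 510, eBayes without trend 552 and 372, and the mean of probe sets 537 and 466. Without 1 array the counts ran from 571 to 724 and from 416 to 494. Interaction calls, 9 in the reported fit, were 4 on the deposited scale, 4 with no filter, 0 with the mean of all probe sets (789 at unadjusted p under 0.05), 0 without trend (839) and 2 with 6 replicate pairs as a block. They ran from 2 to 9 without 1 array, with 4 without KO 0 h A, KO 2 h A or WT 2 h A, 3 without KO 0 h B or WT 2 h B, 2 without WT 0 h B and 5 without WT 4 h A. The replicate letter did not pair the samples: deviations of arrays with the same letter correlated at -0.042 to 0.105, and the block of letters gave 797 and 541 calls, that of 6 pairs 686 and 498. On the deposited scale the sign turned for Ndufb3 (-0.012), Atp5c1 (-0.040), Nfkbie (-0.050), Ndufa9 (-0.035), Irf8 (-0.048), Ndrg1 (-0.085), Psmb10 (-0.11) and Eif2s3y (-0.15). With equal medians it turned for Eif2s3y (-0.037) and Uba1y (0.026), with the mean of probe sets for Mcm2 (-0.027) and Casp9 (-0.053). Uba1y, at -0.015 and near the filter, was 0.00043 with trimmed-mean scaling, 0.11 without the 0 h arrays and -0.089 to 0.081 without 1 array. The cause of these changes was not tested.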
